A study of Mus musculus with 2 samples.

Results

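The members are 9 mouse genes for scavenger receptors: Cd36, Scarb1 and Scarb2 of class B, Msr1 and Marco of class A, and Olr1, Scarf1, Stab1 and Cd163 of other structural classes. They were taken by gene symbol, not by value, from 22180 genes that had a probe set with 1 symbol. Each of the 9 had exactly 1 such probe set, and 0 probe sets with several symbols held a member. RNA of 2 cultures of bone marrow-derived dendritic cells, which the submitters name GMDC, was hybridised to oligonucleotide arrays. The labels call 1 culture the control. The other was grown with medium taken from E0771 cells, a mouse mammary tumour line, after those cells had been treated with topotecan, a topoisomerase I inhibitor. Both cultures thus share the cell type label, and the labels give no strain, age, dose, time or control medium. Medium from untreated E0771 cells is not analysed here, so topotecan treatment and tumour-conditioned medium as such cannot be told apart. With 1 array per condition there is no replicate error and no test, and "higher" and "lower" below compare these 2 arrays only.

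Scavenger receptors are surface or lysosomal membrane proteins that bind modified lipoproteins, polyanions, microbes and dying cells. They were first described on macrophages by their uptake of acetylated low-density lipoprotein, and most of them are not shut down when the cell fills with cholesterol. The classes share ligands more than sequence: class A receptors are collagen-like trimers, class B receptors cross the membrane at both ends, and the others carry lectin-like, EGF-like, fasciclin or cysteine-rich domains.

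The 9 genes did not move together. Scarb2 and Scarf1 were higher with conditioned medium by 2-fold or more. Scarb1, Stab1 and Cd36 were lower by 2-fold or more. Msr1, Marco, Olr1 and Cd163 lay between. For comparison, 8.63% of all 13712 kept genes passed 2-fold upward and 6.84% downward. A gene counted as kept if at least 1 of its 2 log2 intensities reached 4.10, which is the median over both arrays; signal below that level may be background. All 9 members were kept, but Cd163 passed only through the control array and Olr1 only through the conditioned-medium array, so those 2 genes had to differ to pass. The median log2 difference, taken as conditioned medium minus control, was -0.20 over the 9 genes and -0.07 over all kept genes. The range over the members ran from -2.08 to 1.70. The middle 90% of all kept genes lay between -1.15 and 1.42.

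**Figure D1:**
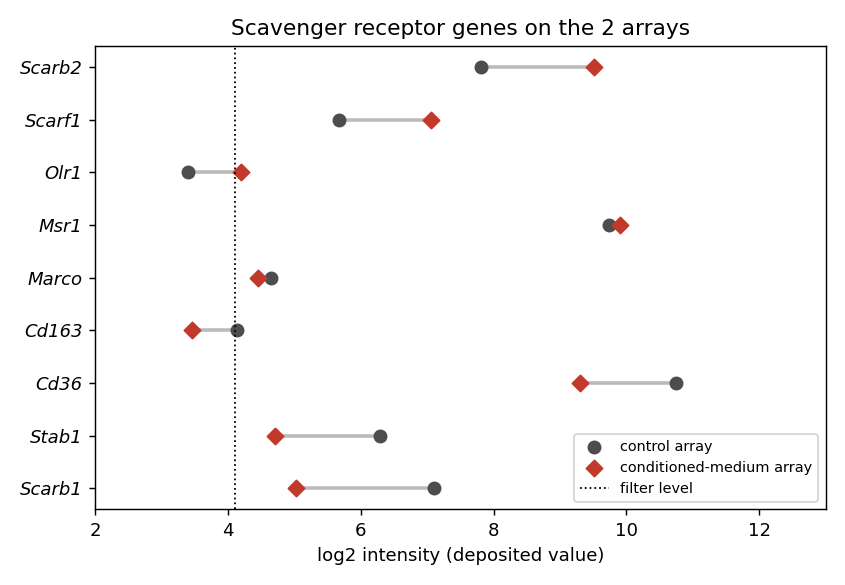
Deposited log2 intensity (x axis) of the 9 scavenger receptor genes (y axis) on the control array (circles) and the conditioned-medium array (diamonds); the dotted line is the filter level of 4.10. Each symbol is 1 array. Scarb2 and Scarf1 lie to the right with conditioned medium, Scarb1, Stab1 and Cd36 to the left, and the symbols of Msr1 and Marco nearly touch.

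The RefSeq promoter table (build GRCm38.p6) held 6 of the 9 genes: Cd36, Scarb2, Stab1, Marco, Olr1 and Cd163. The 250 bases before the start site used by that table are shown for the 3 of these that passed 2-fold, so that the higher gene (Scarb2) can be read against the lower ones (Cd36 and Stab1). The windows are chr5:92505658-92505907 on the minus strand for Scarb2, chr5:17835897-17836146 on the minus strand for Cd36 and chr14:31168642-31168891 on the minus strand for Stab1. Capitals mark matches, on either strand, to GAGGAA (the core of PU.1 and other ETS factor sites), GGGCGG (the GC box of Sp factors) or CCAAT (the NF-Y box).

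Scarb2: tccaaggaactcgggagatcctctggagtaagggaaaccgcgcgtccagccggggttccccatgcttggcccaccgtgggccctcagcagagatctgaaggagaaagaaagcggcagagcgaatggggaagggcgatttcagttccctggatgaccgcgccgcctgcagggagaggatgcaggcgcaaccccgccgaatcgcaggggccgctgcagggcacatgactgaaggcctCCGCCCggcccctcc
Cd36: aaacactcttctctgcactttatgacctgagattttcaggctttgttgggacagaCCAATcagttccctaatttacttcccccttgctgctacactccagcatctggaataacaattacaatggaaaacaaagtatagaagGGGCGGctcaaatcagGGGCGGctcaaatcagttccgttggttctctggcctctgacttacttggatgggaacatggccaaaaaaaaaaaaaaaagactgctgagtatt
Stab1: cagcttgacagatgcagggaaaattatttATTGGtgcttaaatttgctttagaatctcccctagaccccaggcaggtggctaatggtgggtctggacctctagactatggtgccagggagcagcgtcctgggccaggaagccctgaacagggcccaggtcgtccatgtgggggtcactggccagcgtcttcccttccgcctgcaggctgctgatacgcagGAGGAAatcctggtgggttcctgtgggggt

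Cd36 had 2 GC boxes, whose first bases lay 109 and 93 bases before the start, and a CCAAT box at 195. Scarb2 had 1 GC box on the opposite strand at 15. Stab1 had GAGGAA at 30 and an opposite-strand CCAAT box at 221. GC boxes occurred in 32.7%, GAGGAA in 23.2% and CCAAT in 33.8% of the 32851 windows of this length in the table. CACGTG (the E-box) and TGACTCA (the AP-1 site) were searched too and occurred in 6.02% and 4.46% of windows. Among the members the latter was found in Olr1, on the opposite strand, and CACGTG in 0 windows. No 2 of these motifs overlapped in the 3 windows shown. The matches describe letters in these windows and say nothing of binding.

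Scarb2 was the highest of the class B genes by difference and Scarb1 the lowest, with Cd36 on the lower side. Scarb2 encodes LIMP-2, a membrane protein of lysosomes that takes part in the delivery of cargo to them. The control array gave it a log2 intensity of 7.81 (probe set 17449749) and the conditioned-medium array 9.51, 3.25-fold higher. Among all kept genes 3.76% lay at least as far up, and among the 686 kept genes of similar mean level 9.77% did.

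Scarb1 encodes SR-BI, the receptor for high-density lipoprotein that takes up cholesteryl ester without degrading the particle. Its value (probe set 17452957) was 7.10 on the control array and 5.02 with conditioned medium, 4.23-fold lower. It had the lowest difference of the 9 members. At least as far down lay 0.963% of kept genes, and 1.75% of the 685 kept genes of similar mean level. Both of its values lay above the filter level, the lower one by 0.93.

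Cd36 encodes a receptor for long-chain fatty acids, oxidised lipoprotein and thrombospondin. Its value (probe set 17445715) was 10.75 on the control array and 9.31 with conditioned medium, 2.72-fold lower. Among the 686 kept genes of similar mean level 1.46% lay at least as far down, against 2.82% of all kept genes. The difference of Cd36 was thus further out among genes of its own level than among all genes. Scarb2, by contrast, was further out among all genes than among those of its level.

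**Figure D2:**
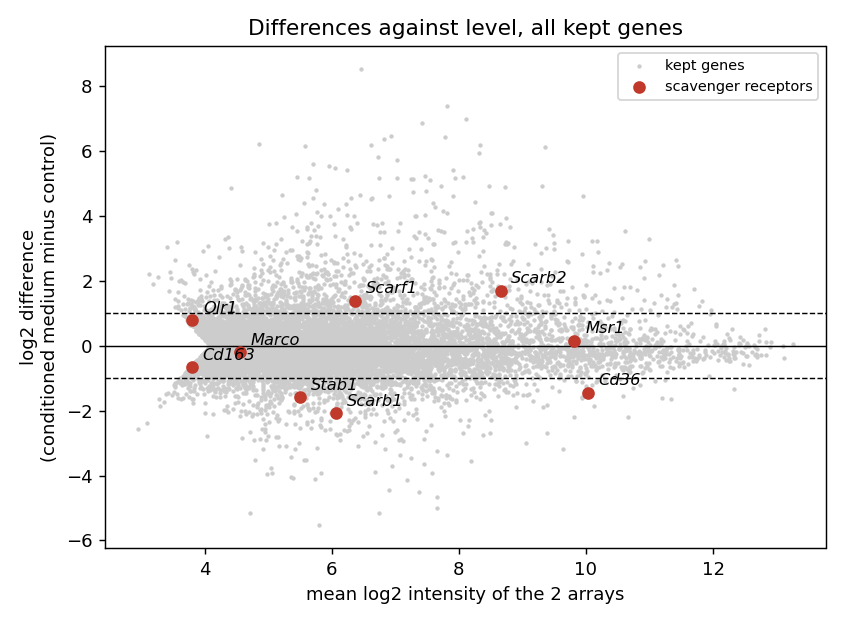
Log2 difference, conditioned medium minus control (y axis), against the mean log2 intensity of the 2 arrays (x axis) for 13712 kept genes (grey) and the 9 scavenger receptors (red, named); dashed lines mark 2-fold. Scarb2 and Scarf1 lie above the upper line, Cd36, Stab1 and Scarb1 below the lower one, and Olr1 and Cd163 sit at the low-level edge next to the filter level.

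The class A receptors had nearly equal values on the 2 arrays. Msr1 encodes SR-A, the collagen-like receptor for acetylated lipoprotein and bacterial polyanions. Its value (probe set 17508850) was 9.74 in the control against 9.90 with conditioned medium, a log2 difference of 0.16. Marco, whose protein binds bacteria and inhaled particles, had 4.65 and 4.45 (probe set 17226327), a log2 difference of -0.20. Marco exceeded the filter level by only 0.56 and 0.35, so both of its values lay near that level. Of all kept genes 35.1% lay at least as far up as Msr1 and 40.5% at least as far down as Marco.

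Of the receptors built from EGF-like and fasciclin domains, Scarf1 was higher and Stab1 lower. Scarf1 encodes SREC-I, which binds modified lipoprotein, calreticulin and complement-coated dying cells. Its value (probe set 17252980) was 5.66 on the control array and 7.06 with conditioned medium, 2.62-fold higher. At least as far up lay 5.22% of kept genes. Stab1 encodes stabilin-1, which takes up acetylated lipoprotein and the matrix protein SPARC. Its value (probe set 17304523) was 6.29 on the control array and 4.72 with conditioned medium, 2.99-fold lower. At least as far down lay 2.13% of kept genes, and 2.33% of the 686 of similar mean level. The lower value of Stab1 stood 0.62 above the filter level.

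The differences of Olr1 and Cd163 rest on values close to or under the filter level. Olr1 encodes LOX-1, a lectin-like receptor for oxidised lipoprotein, and had 3.40 on the control array and 4.20 with conditioned medium (probe set 17471550). Its log2 difference was 0.80 as deposited and 0.10 with the control value raised to the filter level. Cd163 encodes the receptor for haptoglobin-haemoglobin complexes, and had 4.13 on the control array and 3.46 with conditioned medium (probe set 17462843). Its log2 difference was -0.67 as deposited and -0.03 with the lower value raised to the filter level. For the other 7 members both values lay above that level, and raising low values changed nothing.

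A spread between cultures cannot be had from these data. The nearest measure is the disagreement between probe sets of the same gene, which came to a within-gene SD of 0.46 on the log2 scale, pooled over all genes with 2 or more kept probe sets (787 degrees of freedom). The differences of the 5 members past 2-fold were 3.04 to 4.54 times that SD, and those of Msr1 and Marco were 0.351 and 0.445 times. Those 5 were picked for passing 2-fold, a log2 difference of 1. A multiple of at least 1/0.46 was thus assured by the picking. That SD holds no variation between cultures, so these multiples do not measure it. Since each member had 1 probe set, no member was measured again by another one. The signs of all 9 differences were the same under quantile normalization, subtraction of a lowess trend, centring on kept genes and raising of low values. Raising low values cannot reverse a sign. Centring shifts all genes by the same amount, smaller than any of the 9 differences. Quantile normalization could change a difference by at most 0.28, the largest gap between the sorted columns. Only Msr1 and Marco had differences smaller in size than that. Only lowess, and quantile normalization for Msr1 and Marco, could thus have reversed a sign.

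Other scavenger and lipoprotein receptors also lay on both sides. In each pair of values from here on, the control array comes first. The list had 22 measured and 18 kept genes. Past 2-fold lay 2 upward and 3 downward, 13 did not reach it, and the median log2 difference was -0.07. Mrc1, the mannose receptor, was lowest, with 9.75 on the control array and 7.01 with conditioned medium (6.69-fold lower). Cd5l, a secreted scavenger receptor cysteine-rich protein of macrophages, followed with 8.31 and 6.35 (3.88-fold lower), and Colec12, a collectin with a collagen-like stalk, with 6.27 and 5.09. The 2 higher genes were Asgr2, a subunit of the asialoglycoprotein receptor (5.30 and 6.46, 2.24-fold), and Cxcl16, a membrane-bound chemokine that also takes up oxidised lipoprotein (9.64 and 10.66, 2.03-fold). Cd68, a macrosialin of late endosomes, had 12.13 and 12.37. Stab2, the closest relative of Stab1, had 3.49 on both arrays, under the filter level.

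In the list of ligands, which also holds the lipase gene Lpl, Saa3 and Thbs1 were higher and Lpl and Thbs2 lower. Among 17 measured genes of this list 16 were kept. Past 2-fold lay 2 upward and 2 downward, 12 did not reach it, and the median was -0.12. Saa3, a serum amyloid A protein of the family that binds SR-BI and CD36, had 9.35 on the control array and 12.65 with conditioned medium (9.82-fold higher). Thbs1, the gene of the CD36 ligand thrombospondin-1, had 5.62 and 7.30 (3.20-fold higher), so Thbs1 and Cd36 lay on opposite sides. Its relative Thbs2, in the same list, had 5.87 and 4.63 (2.36-fold lower), on the side of Cd36. Lpl, the lipase that frees fatty acids from lipoproteins, had 12.00 and 10.39 (3.04-fold lower), on the same side as Cd36. Hp, the haptoglobin gene, had 9.49 and 9.04, and Sparc, the stabilin-1 ligand, had 9.25 and 9.60.

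Partners and adaptors of the receptors held 3 higher genes, 1 lower and 16 between among 20 kept of 21 measured, with a median of 0.17. Zdhhc5, a palmitoyl transferase that acts on CD36, had 4.60 and 5.94 (2.53-fold higher). Tlr2 (7.16 and 8.31, 2.22-fold) and Tlr4 (4.55 and 5.59, 2.05-fold), signalling receptors that work with CD36, were the other 2, while Tlr6 had 5.79 and 6.04. Gga2, a clathrin adaptor of the family that sorts stabilin-1, had 9.38 and 8.06 (2.50-fold lower), and its relative Gga3 had 4.81 and 4.07. Pdzk1, the adaptor of SR-BI, is not analysed here.

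Of 18 kept genes that act on lipid and haem after uptake, 0 passed 2-fold upward, 3 passed it downward and 15 did not reach it. Their median was -0.11. The 3 lower genes were Slc40a1, the iron exporter ferroportin (5.94 and 4.62, 2.50-fold), Fabp4, a fatty acid carrier (11.39 and 10.10, 2.46-fold), and Blvra, a biliverdin reductase (9.20 and 8.02). Lipa, the lysosomal acid lipase (8.82 and 9.71, 1.85-fold), and Pnpla2, the triglyceride lipase (6.39 and 7.21, 1.77-fold), had the largest upward differences. Hmox1, the haem oxygenase that works downstream of CD163, had 10.85 and 11.08. The sterol exporters Abca1 (4.65 and 4.49) and Abcg1 (5.09 and 5.02) had nearly equal values.

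Transcription regulators known to act on receptors of this kind included 3 higher genes, 2 lower and 12 between among 17 kept, with a median of -0.22. Pparg, a lipid-sensing nuclear receptor that activates Cd36, had 7.62 on the control array and 5.43 with conditioned medium (4.57-fold lower). Mitf, a regulator of lysosomal genes, had 6.79 and 5.79. It passed 2-fold by a margin that centring and lowess removed, leaving 1 lower gene in the list. Klf4 (5.60 and 8.99, 10.5-fold), Irf4 (4.48 and 6.30, 3.55-fold) and Nr1h3, the oxysterol receptor LXR alpha (4.53 and 5.75, 2.34-fold), were higher. Srebf2, the regulator of sterol synthesis, had 5.75 and 4.76, a log2 difference of -0.99.

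**Figure D3:**
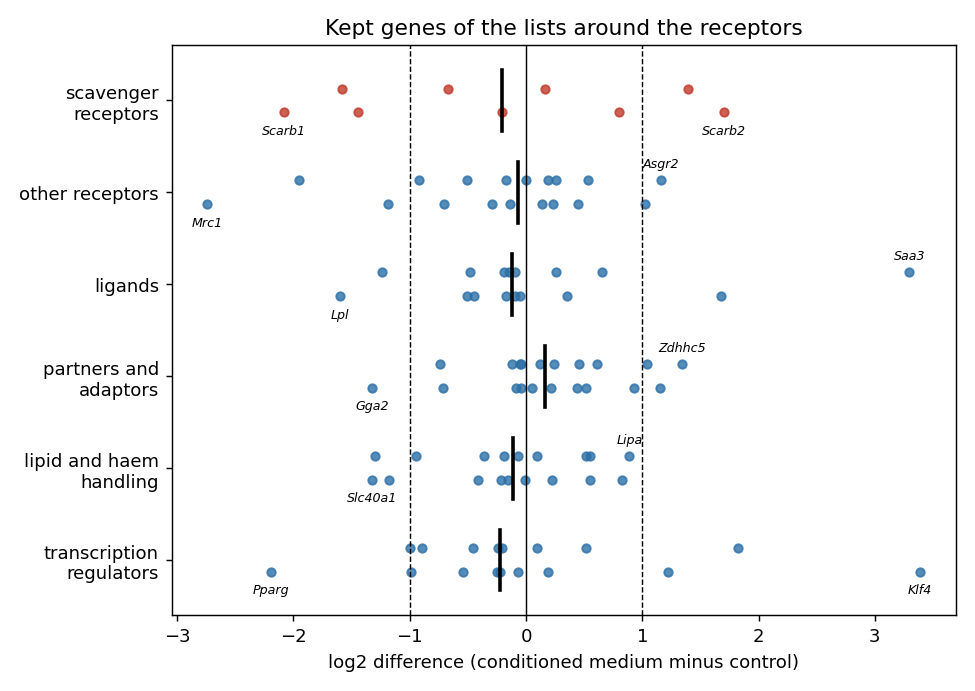
Log2 difference, conditioned medium minus control (x axis), of each kept gene in 6 lists (y axis); each point is 1 gene, bars are list medians and dashed lines mark 2-fold. The medians of all 6 lists lie between -0.22 and 0.17, while single genes such as Mrc1, Pparg, Saa3 and Klf4 lie far from them.

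Markers of cell types moved on the same arrays. Fewer cells of a type and less RNA per cell cannot be told apart in such bulk RNA. Of 12 neutrophil markers, all kept, 10 were at least 2-fold lower and 0 higher, with a median of -2.60, and the sum of their linear intensities was 10660 on the control array and 2582 with conditioned medium. Camp (8.57 and 3.03) and Ngp (9.33 and 4.16), granule protein genes, were lowest, and Cxcr2 (5.35 and 4.39) and Ly6g (6.14 and 6.88) highest. With its low value raised to the filter level, Camp had a log2 difference of -4.47 against -5.54, which put Ngp (-5.16) lowest. Of 11 kept macrophage markers, 3 were lower, 1 higher and 7 between (median -0.05), with sums of 15440 and 17350 over all 12 measured. Lyz2, Cd68 and Fcgr1 carried 14000 and 16740 of these sums, and the other 9 markers summed to 1439 in the control and 609.5 with conditioned medium. Csf1r, the CSF1 receptor (8.58 and 5.66, 7.61-fold), Adgre1, an adhesion receptor of macrophages (9.16 and 6.87, 4.89-fold), and C5ar1 (7.54 and 5.59) were the lower ones. Timd4 (3.64 and 5.65) and Fcgr1 (11.45 and 12.44) lay highest in that list. Raising the control value of Timd4, which lay under the filter level, gave a log2 difference of 1.55 against 2.02. Fcgr1 had a log2 difference of 0.98 and passed 2-fold under quantile normalization, lowess and centring, which gave 2 higher markers in place of 1. Clec4f was under the filter level. The part of these markers in the receptor differences was not tested.

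Dendritic cell markers lay on both sides, and the cell type label itself was not tested. Of 12 kept markers, 4 passed 2-fold upward, 4 downward and 4 did not reach it (median -0.24). Of the lower ones, Itgax did not reach 2-fold under lowess and centring (log2 differences of -0.92 and -0.96 against -1.03), and Flt3 did not reach it with low values raised to the filter level (-0.28 against -1.23) and was not kept by the 75th percentile and mean filters. The integrin gene Itgax had 8.18 on the control array and 7.15 with conditioned medium, and the class II gene H2-Aa had 9.06 and 10.94. Dpp4 had 4.41 and 6.66. Batf3 (7.30 and 5.27) and Clec10a (7.53 and 5.52) were lowest. Flt3 was above the filter level in the control only (4.38 and 3.15), and Zbtb46, a transcription factor gene that defines conventional dendritic cells, was under it on both arrays (3.65 and 3.65). The summed linear intensity of the 13 measured markers was 2577 on the control array and 5076 with conditioned medium. The class II genes H2-Aa and H2-Ab1 (10.16 and 11.31) carried 1678 and 4492 of it, and the other 11 markers summed to 899.3 in the control and 584.3 with conditioned medium.

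Endothelial cells also carry Stab1, Scarf1 and Cd36. Of 12 endothelial markers 5 were under the filter level (Cdh5, Tek, Emcn, Stab2 and Clec14a), and the summed intensity was 200.4 on the control array and 224.1 with conditioned medium. Kdr (3.66 and 5.13) and Esam (3.51 and 4.37) lay highest in that list, and Vwf (5.38 and 4.96) and Tie1 (4.26 and 4.03) lowest. The control values of Kdr and Esam lay under the filter level. With these raised to it, the log2 difference was 1.04 for Kdr (1.47 as deposited) and 0.27 for Esam (0.86). Esam then lay below Plvap (0.34). Mammary epithelial and stromal markers were listed for carried-over tumour material. Of 13 measured, 5 were under the filter level, among them Epcam and Krt18, while Dcn (3.96 and 7.98) and Cdh1 (6.42 and 10.21) were higher and the summed intensity was 4403 and 4103. The control value of Dcn lay under the filter level, and raising it gave a log2 difference of 3.88 against 4.01. The log2 difference of Cdh1 was 3.79, and 2.17 over the mean of its 2 probe sets. Col3a1 (5.91 and 5.23) and Acta2 (10.08 and 9.08) were lowest, and quantile normalization gave 1 marker in this list at least 2-fold lower in place of 0. Lymphocyte markers (4 kept of 7) and platelet and erythroid markers (3 kept of 4) had 0 genes past 2-fold in either direction, with medians of 0.27 and -0.19.

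**Figure D4:**
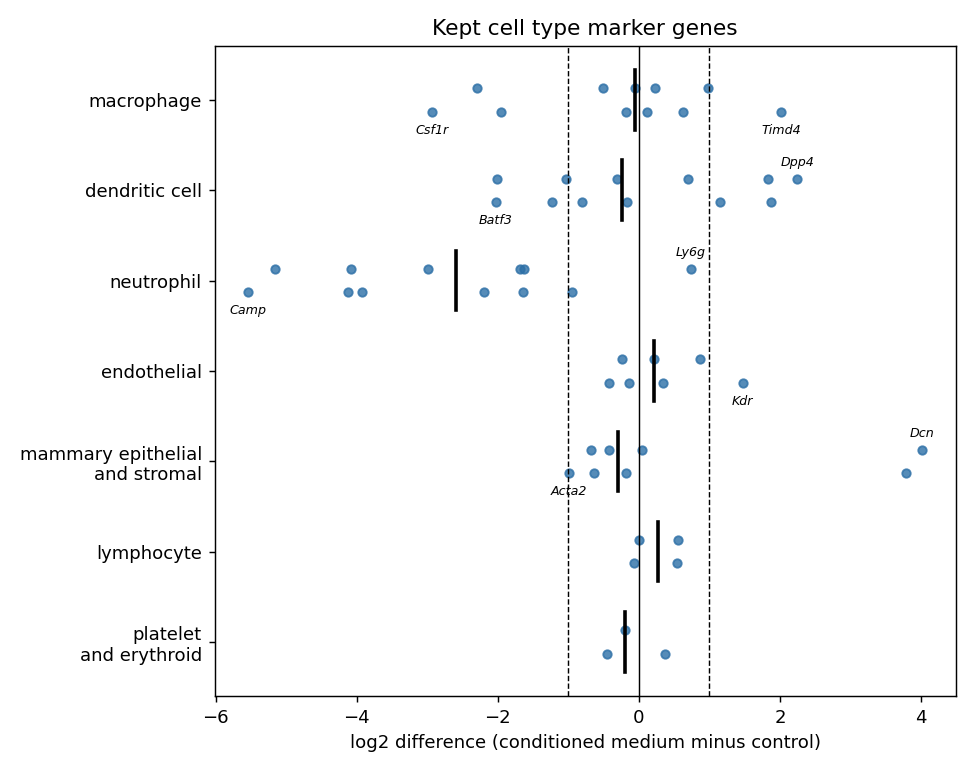
Log2 difference, conditioned medium minus control (x axis), of each kept marker gene of 7 cell types (y axis); each point is 1 gene, bars are list medians and dashed lines mark 2-fold. The neutrophil list has its median at -2.60, and the medians of the other lists lie between -0.30 and 0.27.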

How the data were processed

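Trizol-extracted total RNA was converted to biotin-labelled cRNA and hybridised, per the labels' protocols. The authors deposited 1 value per probe set and array, read here as log2 intensity because the values run from -0.26 to 13.50; the log base is an inference. Affymetrix Expression Console is named in the submitters' processing notes. For its version, algorithm, normalization and genome build, the sources used here give nothing. After sorting, the columns differed by at most 0.28, so a shift of most genes one way would not show.

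Of 41345 probe sets, 23521 had 1 symbol in the platform annotation. A gene was its probe set with the highest mean. A fold is 2 raised to the log2 difference. No test was run, with 1 array per group, and the number of arrays limits the precision. Genes of similar level came from 20 bins of mean level. The counting was run on simulated data with little noise, levels well above the filter and planted changes well past 2-fold. That checks the code only, not calls near the threshold or the filter level.

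The members, gene lists and motifs were chosen with earlier results of these data known. The genes named were the members, the 2 highest and 2 lowest kept genes of each list, and 15 genes named whatever their values. Some of the latter are not reported here. Abca1, Abcg1, Blvra, C5ar1, Cdh5, Clec14a, Clec4f, Colec12, Emcn, Epcam, Flt3, H2-Ab1, Itgax, Krt18, Lyz2, Sparc, Stab2, Tek and Zbtb46 were named beyond that rule, with their values known. Python 3.11.15, numpy 2.4.6, pandas 2.3.3 and statsmodels 0.14.6 were used.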

Additional observations from a re-analysis of the deposited data

How the results depend on the processing

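Of 45 recomputed differences of members (mean of all probe sets, quantile normalization, lowess, centring on kept genes, low values raised to the filter level), 43 moved by less than the probe set SD of 0.46 and 0 changed sign. The mean of all probe sets is no check here, since each member has 1. Raising low values could not alter the 7 members with both values above the filter level. Centring subtracted the same median of -0.0712 from every member, too small to reach the probe set SD or to reverse a sign. Quantile normalization could change a difference by at most 0.28, the largest gap between the sorted columns, which is also below that SD. Only lowess, and raising for Olr1 and Cd163, could have moved a difference by that SD. With low values raised to the filter level, Olr1 moved from 0.80 to 0.10 and Cd163 from -0.67 to -0.033 on the log2 scale, because 1 value of each lies under that level. The counts of 2 higher and 3 lower members were the same under every filter and normalization run. The filters could not change them. Stab1 had the lowest level of the members counted, and its control value of 6.29 exceeded the 75th percentile of 5.48. Its mean exceeded the filter level, and looser filters had no member to add. The share of all kept genes past 2-fold did change, from 5.79% higher and 4.94% lower with no filter to 13.57% and 10.16% at the 75th percentile. At 3-fold, 1 member was higher (Scarb2) and 1 lower (Scarb1), and at 1.5-fold 3 were higher and 4 lower, Olr1 and Cd163 being added. Over all kept genes the 3-fold threshold left 568 higher and 290 lower, and 1.5-fold gave 2274 and 2458, against 1184 and 938 at 2-fold. A filter at the 75th percentile kept 7400 genes and 6 members. The alternatives for the other lists were added after seeing the data. No paired analysis was possible because each condition has 1 array.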
